A study of Mus musculus with 8 samples.

Results

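NF-κB is the transcription factor family through which LPS, bound by its receptor on macrophages and endothelium, switches on cytokine and adhesion genes. The genes described here are 10 members of this system, chosen by their symbols: the 5 subunits (Nfkb1, Nfkb2, Rel, Rela and Relb), the cytoplasmic inhibitors Nfkbia and Nfkbie, the nuclear IκB proteins Nfkbiz and Bcl3, and Tnfaip3, which encodes the ubiquitin-editing enzyme A20. All 10 were found among the 24584 genes of the table, and all 10 were among the 15706 genes with enough counts to be tested. The lungs came from wild-type male ICR mice, 6 to 8 weeks old, that received LPS of Escherichia coli intraperitoneally at 5 mg/kg and were killed 12 h later. The LPS + Tan group (n = 4) was pretreated with tangeretin, 50 mg/kg by the same route, 30 min ahead of the LPS, and the LPS group (n = 4) received LPS without tangeretin. Since LPS was given to both groups and no unchallenged lung was analysed here, the comparison bears on adding tangeretin and not on the induction of NF-κB by LPS. Whole lung tissue was sequenced, and the labels do not say whether a library is 1 mouse or a pool.

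In a resting cell, NF-κB dimers are held in the cytoplasm by IκB proteins. Receptor signals activate the IKK complex, which marks IκB for degradation, so that dimers such as those of RelA with the Nfkb1 product enter the nucleus. A slower, non-canonical branch driven by the kinase NIK (Map3k14) processes the Nfkb2 precursor and releases dimers with RelB. Several genes of the system are themselves classical NF-κB targets, among them Nfkbia, Nfkbie, Tnfaip3, Nfkb2 and Relb, and the resynthesised IκBα and A20 shut the signal down again. Their transcripts are therefore often read as a gauge of recent NF-κB activity in inflamed lung.

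The matches to the κB motif, the sequence that NF-κB dimers bind, are shown because feedback on these genes is known to run through such sites. RefSeq promoter windows of GRCm38.p6 were found for 7 of the 10 members, with 10 windows in total, each read over the 250 bases before the annotated start on both strands, with overlapping matches joined. The κB motif was matched in 5 of the 7, Nfkb2, Nfkbia, Nfkbie, Rel and Tnfaip3, and was not matched in the windows of Bcl3 and Rela. A match was GGG, a purine, any base, A or T, a pair of pyrimidines and CC, or its reverse complement. Counted by window, 7 of the 10 windows held a match, where 3.90% of all 32851 promoter windows of the table did, and Nfkb2 and Tnfaip3 have several windows each. The count depends on the form of the motif: with T fixed at the last 3 of the 5 middle positions and the other two left free, 4 of the 7 members held a match, Nfkbie not among them, as did 1.41% of all windows. The matches are given with the bases around them, on the strand of the gene, with the matched bases in capitals:
Nfkbia, 29 bases before the start, chr12:55492657-55492686, minus strand: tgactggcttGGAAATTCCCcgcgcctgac
Tnfaip3, 12 bases before the start, chr10:19015403-19015432, minus strand: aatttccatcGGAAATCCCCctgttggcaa
Tnfaip3, 125 bases before the start, chr10:19015516-19015545, minus strand: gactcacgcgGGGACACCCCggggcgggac
Rel, 92 bases before the start, chr11:23771042-23771070, minus strand: gtaagcagcGGGAAATCCCCccccctccc
Nfkb2, 39 bases before the start at 46304737, chr19:46304689-46304717, plus strand: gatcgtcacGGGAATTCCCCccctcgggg
Nfkb2, 11 bases before the start at 46304737, chr19:46304716-46304745, plus strand: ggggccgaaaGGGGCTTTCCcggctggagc
Nfkb2, 236 bases before the start at 46305695, chr19:46305449-46305478, plus strand: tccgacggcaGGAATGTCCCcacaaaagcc
Nfkb2, 225 bases before the start at 46305930, chr19:46305695-46305724, plus strand: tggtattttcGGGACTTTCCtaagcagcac
Nfkbie, 106 bases before the start, chr17:45555584-45555613, plus strand: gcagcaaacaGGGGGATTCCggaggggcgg

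The whole window of Nfkbia, the classic feedback inhibitor, is chr12:55492648-55492897 on the minus strand, with its κB match in capitals: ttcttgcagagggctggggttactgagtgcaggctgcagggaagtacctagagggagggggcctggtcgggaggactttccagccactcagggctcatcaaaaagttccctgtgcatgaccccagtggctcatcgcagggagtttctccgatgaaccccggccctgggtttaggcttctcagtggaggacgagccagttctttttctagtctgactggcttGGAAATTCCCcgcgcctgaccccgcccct. The windows of Nfkb2 belong to alternative starts that lie within the gene as GENCODE draws it. A match describes the sequence, and binding was not measured.

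The LPS libraries held 38895654 to 39931970 counts and the LPS + Tan libraries 39039693 to 39629332. The members had between 1101 and 20602 counts in a sample, so counting error was small. Markers of epithelium (summed CPM of 19352 to 30107 over all 8 samples) and endothelium (3599 to 4325) were high, as in lung. Of the 10 T cell and 10 B cell markers listed, 9 of each were matched in the table, and every marker that was matched had counts.

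No NF-κB gene passed the test between the groups, and Tnfaip3 differed most. With CPM (counts scaled to a common library total, with TMM factors) tested by edgeR's quasi-likelihood method over all 15706 genes, 0 of the 10 members passed an adjusted p of 0.05. Across all genes 0 passed (0%), 804 genes (5.12%) had an unadjusted p below 0.05, and DESeq2 called 35 genes (0.226% of those with an adjusted p) and 0 members at an adjusted p of 0.05. The study's own thresholds, an unadjusted p of 0.05 with an absolute log2 fold change above 1, were met by 0 members and by 0.649% of all genes (0.299% lower, 0.35% higher). At an unadjusted p of 0.05, Tnfaip3 was the single member lower in the LPS + Tan group, where 2.25% of all tested genes were lower at that level, and 0 members were higher, where 2.87% of all genes were. The log2 fold change (LPS + Tan against LPS) was below 0 for 7 of the 10 members, against 48.2% of all genes, and above 0 for 3, against 51.8%. It was below 0 for 4 of the 10, and for 36.8% of all genes, when counts were scaled to sample totals alone, and for 4 of the 10, and 37.9% of all genes, on log2(FPKM + 1). The median was -0.030 for the members and 0.0070 for all genes, and the groups overlapped in CPM for every member, where 2.73% of all genes had groups that did not overlap. As this is whole tissue, fewer cells of a type and less RNA per cell cannot be told apart.

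**Figure D1:**
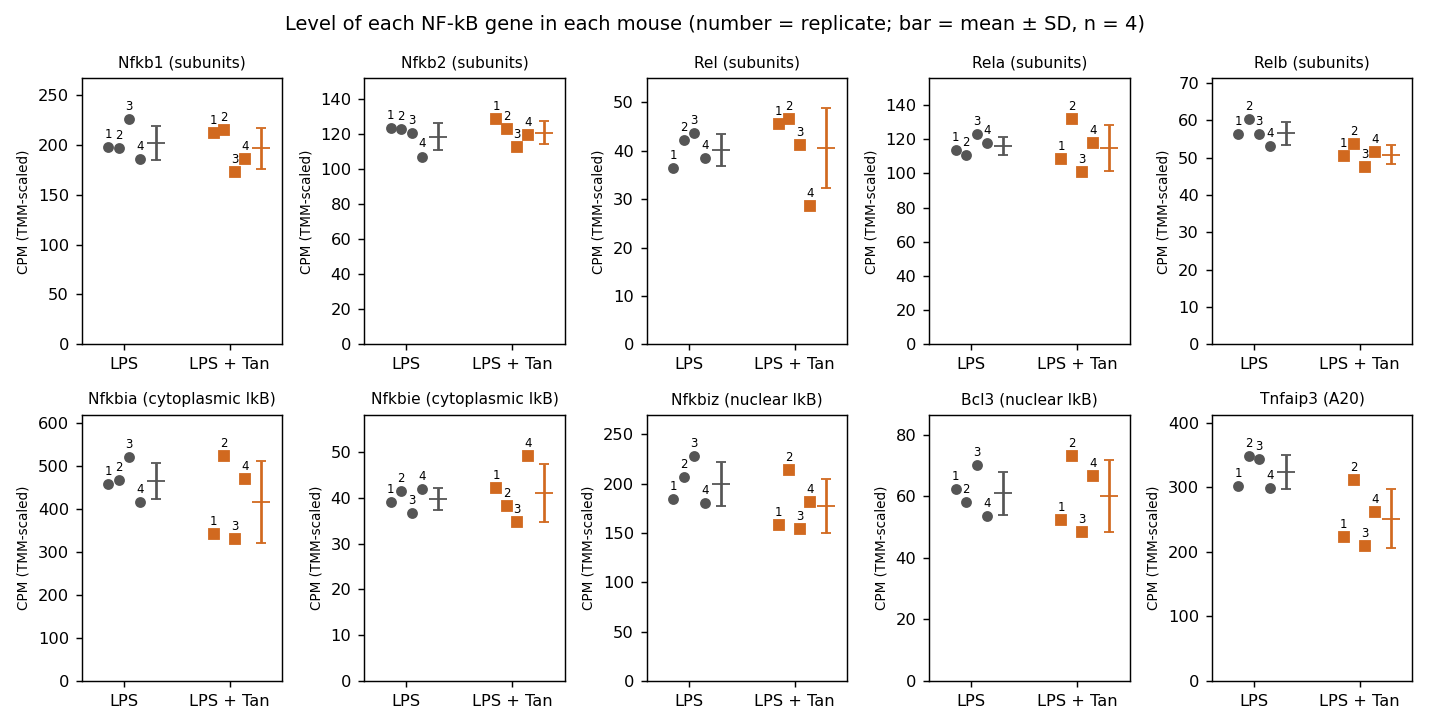
CPM (TMM-scaled) of each of the 10 NF-κB genes in the 4 LPS samples (grey circles) and the 4 LPS + Tan samples (orange squares), with replicate numbers above the points and the mean ± SD beside them. The groups overlap in every panel, and replicates 1 and 3 of the LPS + Tan group lie lowest for Nfkbia, Nfkbiz, Bcl3 and Tnfaip3.

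Tnfaip3 (chr10:19000910-19015657, minus strand, GENCODE on GRCm38) encodes A20, which removes activating ubiquitin chains from signalling intermediates and is the main brake on the pathway upstream of IKK. Its CPM was 302, 349, 343 and 299 in LPS replicates 1 to 4 and 223, 312, 209 and 262 in LPS + Tan replicates 1 to 4. Thus 3 of the 4 LPS + Tan samples lay below every LPS sample, and LPS + Tan replicate 2 lay among them. Tnfaip3 thus averaged 323 ± 26.6 CPM (SD, n = 4) with LPS and 252 ± 46.2 CPM (SD, n = 4) with tangeretin added. The log2 fold change was -0.36 (standard error 0.13) with a 95% interval from -0.65 to -0.070, a level 0.778 times that of the LPS group. The unadjusted p was 0.0200 and the adjusted p 0.924 by edgeR, with adjusted p of 0.254 or more over the 15 alternatives and 0.524 by DESeq2. An exact two-sided permutation test of the log2 CPM gave p = 0.0857, where 4 against 4 samples cannot give less than 0.0286. The unadjusted p rose to 0.0550 without LPS replicate 2, to 0.0572 without LPS + Tan replicate 1 and to 0.0600 without LPS + Tan replicate 3, and fell to 0.00183 without LPS + Tan replicate 2.

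Among the 5 subunits, 0 had an unadjusted p below 0.05, and Relb came nearest. Relb (chr7:19606217-19629438, minus strand), the partner of the processed Nfkb2 product, had CPM of 56.2, 60.4, 56.3 and 53.1 in the LPS samples and 50.5, 53.6, 47.6 and 51.6 in the LPS + Tan samples. Of the LPS + Tan samples, 3 of 4 were below every LPS sample, and the remaining sample overlapped by less than 1 CPM. Its log2 fold change was -0.15 (standard error 0.074) with a 95% interval from -0.32 to 0.012 (unadjusted p = 0.0652, adjusted p = 0.924 by edgeR). Relb varied less between LPS + Tan samples than any other member, with a coefficient of variation of 4.91% there and 5.28% in the LPS group. Without LPS + Tan replicate 2 its unadjusted p was 0.0492, and on log2(FPKM + 1) its log2 fold change was -0.099.

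Nfkb2 (chr19:46304320-46312385, plus strand), whose precursor protein is both an IκB-like inhibitor and the source of the non-canonical subunit, had CPM of 124, 123, 121 and 107 in the LPS samples and 129, 123, 112 and 119.6 in the LPS + Tan samples. The groups overlapped nearly throughout. The log2 fold change was 0.027 with a 95% interval from -0.15 to 0.21 (adjusted p = 0.988 by edgeR). GENCODE places Psd and a long non-coding RNA, both on the other strand, over the ends of Nfkb2, and strand use in counting is not given in the sources used here, so part of its reads may belong to them.

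Rela (chr19:5637483-5648130, plus strand) encodes the main activating subunit of the canonical branch. Its CPM was 114, 111, 123 and 118 in the LPS samples and 108, 132, 101 and 118 in the LPS + Tan samples. The LPS + Tan samples thus spread to both sides of the LPS samples, and the log2 fold change was -0.019 (95% interval from -0.23 to 0.19, adjusted p = 0.997 by edgeR), a sign that turned with scaling to sample totals.

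Nfkb1 (chr3:135584655-135691547, minus strand) encodes its usual partner. CPM was 198, 197, 226 and 187 in the LPS samples and 212, 216, 173 and 186 in the LPS + Tan samples. No order of the groups was visible, with a log2 fold change of -0.037 (95% interval from -0.26 to 0.19, adjusted p = 0.987 by edgeR), whose sign also turned with that scaling.

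Rel (chr11:23736847-23770970, minus strand) encodes c-Rel, a subunit of lymphocytes and myeloid cells. CPM was 36.4, 42.3, 43.6 and 38.5 in the LPS samples and 45.6, 46.6, 41.2 and 28.6 in the LPS + Tan samples. LPS + Tan replicate 4 was the lowest of all 8 samples and replicates 1 and 2 were the highest, and the log2 fold change was 0.011 (95% interval from -0.31 to 0.33, adjusted p = 0.998 by edgeR). It was 0.15 without LPS + Tan replicate 4. In that sample the summed T cell markers (28.4 CPM, against 37.2 or more in the other LPS + Tan samples) and B cell markers (25.6 CPM, against 33.8 or more) were also lowest, whereas the summed macrophage and monocyte markers (4968 CPM) were the highest of all 8 samples, and the part of these cells in the Rel value was not tested.

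**Figure D2:**
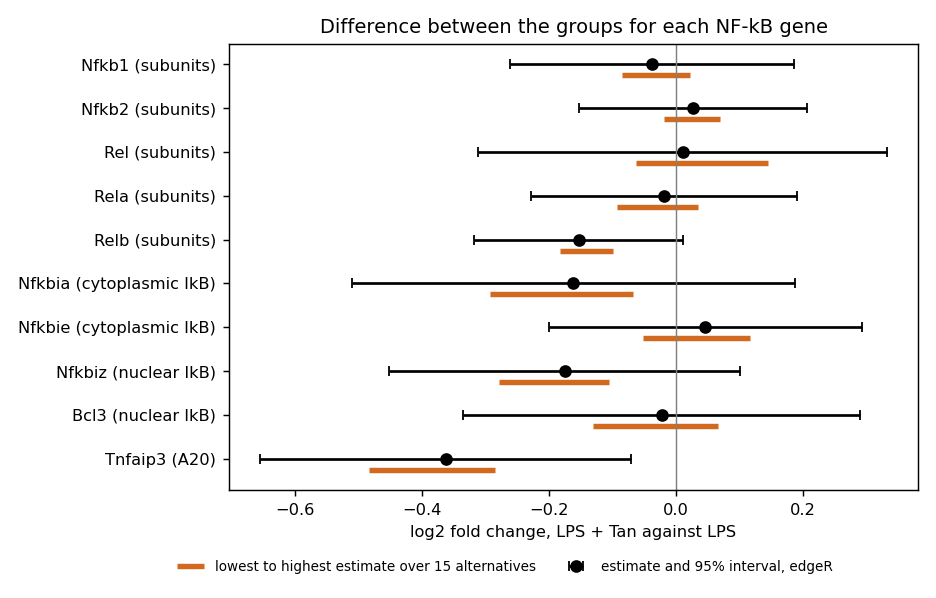
Log2 fold change of LPS + Tan against LPS for each NF-κB gene, as edgeR's estimate with its 95% interval (black) and as the range of estimates over the 15 alternatives (orange). The interval of Tnfaip3, from -0.65 to -0.070, is the single one that leaves out 0, and the alternatives stay on the lower side for Tnfaip3, Relb, Nfkbia and Nfkbiz.

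Among the cytoplasmic inhibitors, Nfkbia (chr12:55489410-55492647, minus strand) encodes IκBα, whose resynthesis after degradation closes the canonical response. CPM was 457, 467, 520.2 and 416 in the LPS samples and 341, 524, 330.2 and 469 in the LPS + Tan samples. Replicates 1 and 3 of the LPS + Tan group were below every LPS sample, whereas replicate 2 was the highest of all 8. Nfkbia averaged 465 ± 42.8 CPM (SD, n = 4) with LPS and 416 ± 95.5 CPM (SD, n = 4) with tangeretin added. The log2 fold change of -0.16 had a 95% interval from -0.51 to 0.19 (adjusted p = 0.965 by edgeR), so neither an unchanged level nor a level lower by 0.5 on the log2 scale lies outside it. It was -0.29 without LPS + Tan replicate 2, -0.079 without replicate 1 and -0.067 without replicate 3.

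Nfkbie (chr17:45555703-45563169, plus strand) encodes IκBε, a slower inhibitor that acts mainly on RelA and c-Rel dimers. CPM was 39, 41.4, 36.6 and 42.0 in the LPS samples and 42.2, 38.1, 34.7 and 49.2 in the LPS + Tan samples. The highest value came from LPS + Tan replicate 4, the sample with the lowest Rel, and the log2 fold change was 0.047 (95% interval from -0.20 to 0.29, adjusted p = 0.985 by edgeR). Without that sample it was -0.052.

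The nuclear IκB proteins act on chromatin-bound dimers rather than holding them in the cytoplasm. Nfkbiz (chr16:55811375-55838899, minus strand) encodes IκBζ, needed for secondary response genes such as Lcn2 and Il6, and its CPM was 184, 207, 228 and 180.5 in the LPS samples and 158, 214, 154 and 182 in the LPS + Tan samples. Again replicates 1 and 3 of the LPS + Tan group were below every LPS sample. The log2 fold change was -0.17 (standard error 0.12; 95% interval from -0.45 to 0.10, adjusted p = 0.936 by edgeR), and the unadjusted p of 0.189 became 0.0329 without LPS + Tan replicate 2. Its log2 fold change was -0.28 without that sample, -0.12 without LPS + Tan replicate 3 and -0.10 without LPS replicate 3.

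Bcl3 (chr7:19808462-19822770, minus strand) encodes a partner of the dimers formed by the Nfkb1 or Nfkb2 products. CPM was 62.3, 58.1, 70.1 and 53.5 in the LPS samples and 52.1, 73.2, 48.5 and 66.5 in the LPS + Tan samples. The same samples, LPS + Tan replicates 1 and 3, were lowest and replicate 2 was highest, with a log2 fold change of -0.022 (95% interval from -0.33 to 0.29, adjusted p = 0.998 by edgeR) whose sign turned with scaling to sample totals. GENCODE lists a pair of antisense genes within Bcl3, whose reads cannot be told apart from its own without strand.

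The coefficient of variation was higher in the LPS + Tan group for 8 of the 10 members and for 64.6% of all tested genes. The exceptions, Nfkb2 and Relb, had a lower coefficient of variation in the LPS + Tan group. In the LPS and the LPS + Tan group it was 9.19% and 22.9% for Nfkbia, 8.22% and 18.4% for Tnfaip3, 8.20% and 20.4% for Rel, and 4.54% and 11.6% for Rela. LPS + Tan replicate 3 was below every LPS sample in 8 of the 10 genes, replicate 1 in 6, replicate 4 in 4 and replicate 2 in 0, while replicate 2 was above every LPS sample in 4, replicate 1 in 3, replicate 4 in 1 and replicate 3 in 0. Of all tested genes, between 21.8% and 27.0% lay below every LPS sample in each LPS + Tan sample, and between 21.5% and 28.1% lay above. The summed epithelial markers were 21543 and 19352 CPM in LPS + Tan replicates 1 and 3 and 23374 and 30107 CPM in replicates 2 and 4. The summed neutrophil markers were 5978 and 5670 CPM in replicates 1 and 3 and 4241 and 5632 CPM in replicates 2 and 4. LPS replicate 3 had 22177 CPM of epithelial and 6238 CPM of neutrophil markers, the latter the highest of all 8 samples. Its members lay at a median of 0.10 above the LPS mean in log2 CPM, the highest in the LPS group. The part of cell composition in these differences between samples was not tested.

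**Figure D3:**
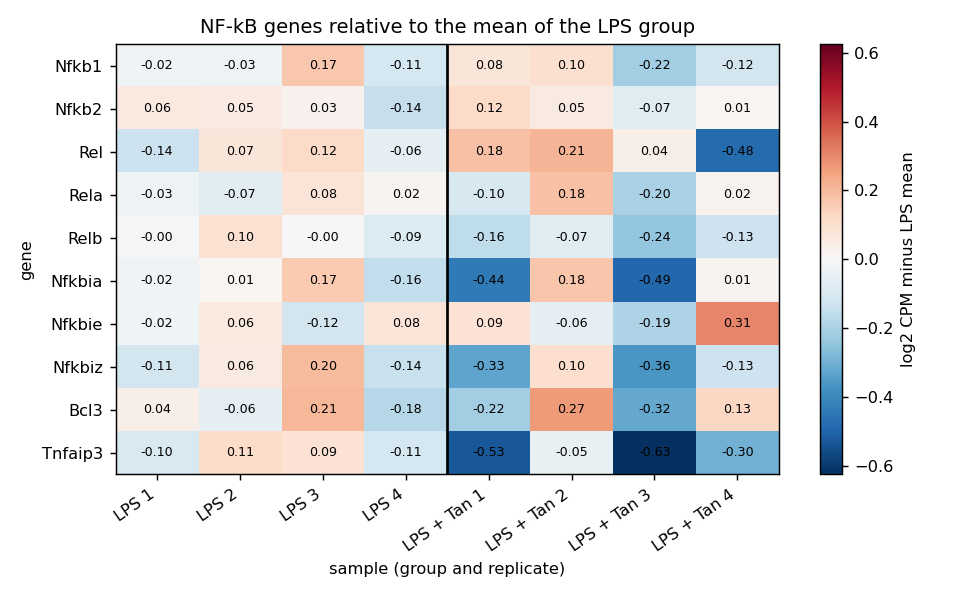
Log2 CPM of the 10 NF-κB genes (rows) in each sample (columns), relative to the mean of the LPS group, with blue below and red above it. LPS + Tan replicates 1 and 3 are below every LPS sample for Nfkbia, Nfkbiz, Bcl3 and Tnfaip3, whereas replicate 2 is above the LPS mean for all but Relb, Nfkbie and Tnfaip3.

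Known partners were compared across the 8 samples in 5 pairs, with exact two-sided permutation tests and Benjamini-Hochberg adjustment over the 5 pairs. Nfkbia and Tnfaip3, the paired feedback inhibitors, had a Pearson r of 0.873 (exact permutation p = 0.00811, adjusted p = 0.0359) and a Spearman rho of 0.714 (exact permutation p = 0.0576, adjusted p = 0.144). After removal of the samples farthest from the median of Nfkbia, r was 0.354 over 6 samples (exact permutation p = 0.494), so the relation did not hold without those samples, whose removal also narrows the range of Nfkbia. Nfkbiz and Bcl3 had r of 0.824 (exact permutation p = 0.0144, adjusted p = 0.0359) and rho of 0.881 (exact permutation p = 0.00724, adjusted p = 0.0362), and r of 0.674 over 6 samples without the farthest samples (exact permutation p = 0.139). Nfkb1 and Rela had r of 0.618 (exact permutation p = 0.0994, adjusted p = 0.166) and rho of 0.524 (exact permutation p = 0.197, adjusted p = 0.328), with r of 0.213 over 6 samples. Nfkb2 and Relb had r of 0.313 (exact permutation p = 0.446, adjusted p = 0.557) and rho of 0.214 (exact permutation p = 0.619, adjusted p = 0.774), and r turned to -0.280 over 6 samples. Nfkbia and Nfkbie, both cytoplasmic inhibitors, had r of 0.118 (exact permutation p = 0.777, adjusted p = 0.777) and rho of -0.048 (exact permutation p = 0.935, adjusted p = 0.935), and r turned to -0.476 over 6 samples. With single samples left out, the adjusted p of Nfkbia with Tnfaip3 and that of Nfkbiz with Bcl3 were each above 0.05 in 6 of 8 omissions, reaching 0.149 without LPS + Tan replicate 3, and stayed below it without LPS replicate 2 or LPS + Tan replicate 4. Such correlations were not limited to known partners: r was 0.934 for Nfkbia and Nfkbiz, 0.927 for Nfkbia and Bcl3, 0.920 for Nfkbiz and Tnfaip3 and 0.918 for Relb and Tnfaip3. Of the 45 member pairs, 8 (17.8%) had r above 0.8, as had 1.75% of all pairs of tested genes, a description over 8 samples with no test. All pairs include genes of much lower level than the members and were not matched for it. When each group was centred on its own mean, r was 0.937 for Nfkbia and Tnfaip3, 0.896 for Nfkbiz and Bcl3 and 0.711 for Nfkb2 and Relb.

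Ratios within a library do not depend on scaling, and some did not overlap between the groups although all single levels did. Of the 45 pairs among the 10 members, 7 (15.6%) had a within-library ratio whose groups did not overlap, where 2.98% of all pairs of tested genes had such a ratio. The members lay above 51.5% to 98.8% of tested genes in FPKM, and all pairs were not matched to that level. These pairs share genes and were picked out for this separation, so the values are a description with no test. Tnfaip3 was in 5 of the 7 pairs, with Nfkbia, Nfkbiz, Bcl3, Nfkb1 and Rela, and in each it was lower relative to its partner in all 4 LPS + Tan samples than in any LPS sample.

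The ratio of Nfkbia to Tnfaip3, in FPKM (counts scaled by gene length and sample total, as deposited by the authors), was 4.59, 4.05, 4.58 and 4.21 in the LPS samples and 4.63, 5.08, 4.78 and 5.41 in the LPS + Tan samples. The gap between the groups was narrow there, from 4.59 to 4.63. The ratio of Bcl3 to Tnfaip3 was 0.534, 0.430, 0.528 and 0.463 in the LPS samples and 0.605, 0.607, 0.601 and 0.657 in the LPS + Tan samples, a wider gap that includes LPS + Tan replicate 2. The ratio of Rela to Tnfaip3 ran from 0.529 to 0.653 in the LPS samples and from 0.703 to 0.809 in the LPS + Tan samples. Bcl3 and Rela themselves differed little in mean between the groups, at log2 fold changes of -0.022 and -0.019.

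Of the other separated pairs, the ratio of Nfkb2 to Relb was 1.20, 1.11, 1.17 and 1.10 in the LPS samples and 1.39, 1.25, 1.29 and 1.27 in the LPS + Tan samples. Neither gene alone passed the test, with an adjusted p of 0.988 for Nfkb2 and 0.924 for Relb by edgeR. The ratio of Nfkbia to Bcl3 was 8.59 to 9.41 in the LPS samples and 7.66 to 8.37 in the LPS + Tan samples, with LPS + Tan replicate 2 included, where both were high.

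**Figure D4:**
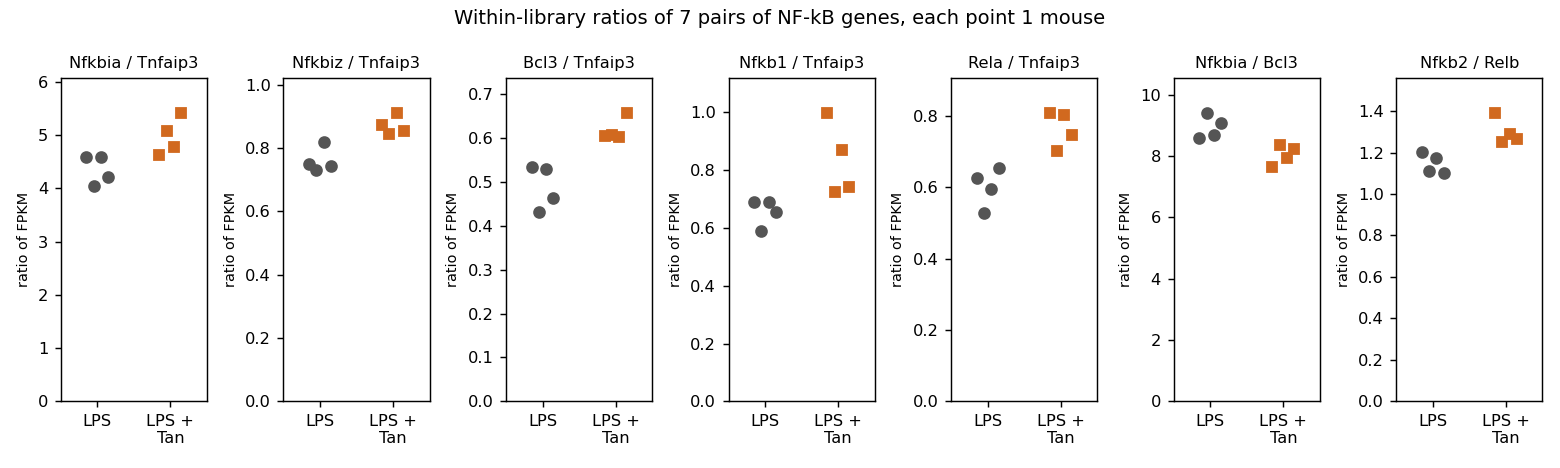
Ratio of FPKM of 2 NF-κB genes within a library, for the 7 of 45 pairs whose groups did not overlap, with each point 1 sample (grey circles LPS, orange squares LPS + Tan) and each axis starting at 0. Ratios to Tnfaip3 were higher in the LPS + Tan samples, from 0.601 to 0.657 against 0.430 to 0.534 for Bcl3, and the panels share Tnfaip3 in 5 of 7 cases.

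Per length, IκBα mRNA exceeded all other members by far. Mean FPKM over the 8 samples was 278 for Nfkbia (range 220.4 to 333), which is above 98.8% of tested genes, and 60.0 for Tnfaip3 (46.1 to 73.6). Nfkbia was 4.05 to 5.41 times Tnfaip3 in every sample. Next came Nfkbiz at 48.5 FPKM, Nfkb1 at 43.7 and Rela at 40.2, which changed places in 1 of 8 samples for each neighbouring pair and whose ranges overlap. Bcl3 at 32.7, Nfkbie at 16.6, Nfkb2 at 10.6, Relb at 8.69 and Rel at 5.42 FPKM followed in the same order in 8 of 8 samples, and Rel lay above 51.5% of tested genes.

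This order depends on the gene lengths behind the deposited FPKM. The length used for Nfkb2 was 11300 bases, whereas the gene spans 8066 bases in GENCODE and 11407 in RefSeq and its GENCODE exons join to 4584 bases, and that for Nfkb1 was 4555 bases against 12061 for the joined exons. With the joined exon lengths, an alternative chosen after seeing the data, Nfkb2 moved from rank 8 to rank 5, at 26.1 FPKM, and Nfkb1 from rank 4 to rank 7, at 16.5. Nfkbia stayed first, at 273 FPKM, Tnfaip3 second, at 39.7, and Rel last, at 5.41. Fold changes between groups are the same with either length.

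The other genes of the pathway were taken from lists of inhibitors, kinases, adaptors and A20 partners, 43 genes in all, of which 32 had a log2 fold change below 0, with a median of -0.068, against 48.2% of all genes. With sample totals it was below 0 for 24 of the 43, with a median of -0.026, against 36.8% of all genes. At an unadjusted p of 0.05, 1 of the 43 was lower and 1 higher, against 2.25% and 2.87% of all genes, and 0 passed the adjusted p of 0.05 with edgeR or DESeq2. Birc3, a ubiquitin ligase of the TNF receptor complex and an NF-κB target, was 225, 258, 276 and 228 CPM in the LPS samples and 184, 237, 186 and 198 CPM in the LPS + Tan samples. It was low in the same samples as Tnfaip3, with a log2 fold change of -0.29 (standard error 0.11, unadjusted p = 0.0240, adjusted p = 0.924 by edgeR). The unadjusted p rose to between 0.0585 and 0.0736 without LPS replicate 2, LPS replicate 3, LPS + Tan replicate 1 or LPS + Tan replicate 3.

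The higher gene was Tnip3, which encodes ABIN-3, a binding partner of A20. It was 1.94, 2.84, 2.56 and 2.38 CPM in the LPS samples and 3.79, 3.76, 4.16 and 3.12 CPM in the LPS + Tan samples. Among the 43 genes the groups did not overlap for Tnip3 alone, where 2.73% of all genes had groups that did not overlap. The log2 fold change was 0.61 (standard error 0.18, unadjusted p = 0.00668, adjusted p = 0.922 by edgeR), and the unadjusted p stayed between 0.00119 and 0.0225 over the 15 alternatives. Its log2 fold change ran from 0.51 to 0.69 over 14 of them and was 0.29 on log2(FPKM + 1), a scale that understates changes of low genes. Tnip1, the ABIN of broadest expression, had 450 ± 61.6 CPM (SD, n = 4) with LPS and 372 ± 62.5 CPM (SD, n = 4) with tangeretin added, a log2 fold change of -0.27 (unadjusted p = 0.0798, adjusted p = 0.924 by edgeR).

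The list of upstream kinases held the IKK subunits and IKK-related kinases, Map3k14 (NIK), Map3k7 (TAK1) and the TAK1-binding adaptors Tab1, Tab2 and Tab3. All 10 of these genes had log2 fold changes below 0, against 48.2% of all genes, from -0.25 for Map3k14 and -0.14 for Tbk1 to -0.012 for Tab2, and 0 of them had an unadjusted p below 0.05. With sample totals or FPKM 8 of the 10 were below 0, against 36.8% to 38.2% of all genes, and 7 were without LPS + Tan replicate 4, against 48.3%. Of the 21 adaptor genes, 15 were below 0, with Birc2 at -0.20 next to Birc3, and 10 were with sample totals or FPKM, against the same shares of all genes. The remaining IκB genes split, with Nfkbib at -0.11 and Nfkbid, which encodes the nuclear protein IκBNS, at 0.29, neither at an unadjusted p below 0.05.

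Of 46 NF-κB target genes, listed from general knowledge but with earlier results of these data known, 44 were tested. The list is thus not independent of the values below. Of the 44, 28 had a log2 fold change below 0 and 16 above it, against 48.2% and 51.8% of all genes. Those above 0 included Tnf at 0.093, Il1b at 0.13, Icam1 at 0.022 and Vcam1 at 0.021. The median log2 fold change was -0.23, 10 genes were lower and 2 were higher at an unadjusted p of 0.05, against 2.25% and 2.87% of all genes, and 0 passed the adjusted p by edgeR, where DESeq2 called Ccl20 and Ccl22. The median was -0.15 without LPS + Tan replicate 3 and -0.16 on log2(FPKM + 1). The number of lower genes ran from 4 to 15 when single samples were left out, with 5 without LPS replicate 2, 4 without LPS replicate 3, 5 without LPS + Tan replicate 1 and 5 without LPS + Tan replicate 3. The lower genes were the cytokines Il1a, Cxcl1, Cxcl2, Cxcl5, Ccl20 and Ccl22, the nitric oxide synthase Nos2, the superoxide dismutase Sod2, the acute phase gene Saa3 and tissue factor, F3. Nos2 was 74.9, 111, 109 and 81.1 CPM in the LPS samples and 36.6, 71.0, 41.4 and 82.6 CPM in the LPS + Tan samples, lowest in LPS + Tan replicates 1 and 3, with a log2 fold change of -0.70 (standard error 0.26, adjusted p = 0.924 by edgeR). Cxcl2, Sod2, Saa3, F3 and Il1a were likewise lowest of all 8 samples in LPS + Tan replicates 1 and 3. The remaining lower genes, Cxcl1, Cxcl5, Ccl20 and Ccl22, were not lowest in both of those samples. Ccl22 was lowest in LPS + Tan replicate 2, at 18.9 CPM, and ran from 18.9 to 39.9 CPM with tangeretin and from 45.1 to 75.3 CPM without it, and Ccl20 ran from 2.61 to 4.24 CPM with it and from 5.44 to 13.7 CPM without it. The groups did not overlap for Ccl20, Ccl22, Il1a and Cxcl1 and overlapped for every other tested target. Of all genes, 2.73% had groups that did not overlap. The higher genes were Plau, which encodes urokinase, at 0.60, and the platelet-derived growth factor gene Pdgfb at 0.28. Counts of genes past a threshold say nothing of whether this list differs from others.

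**Figure D5:**
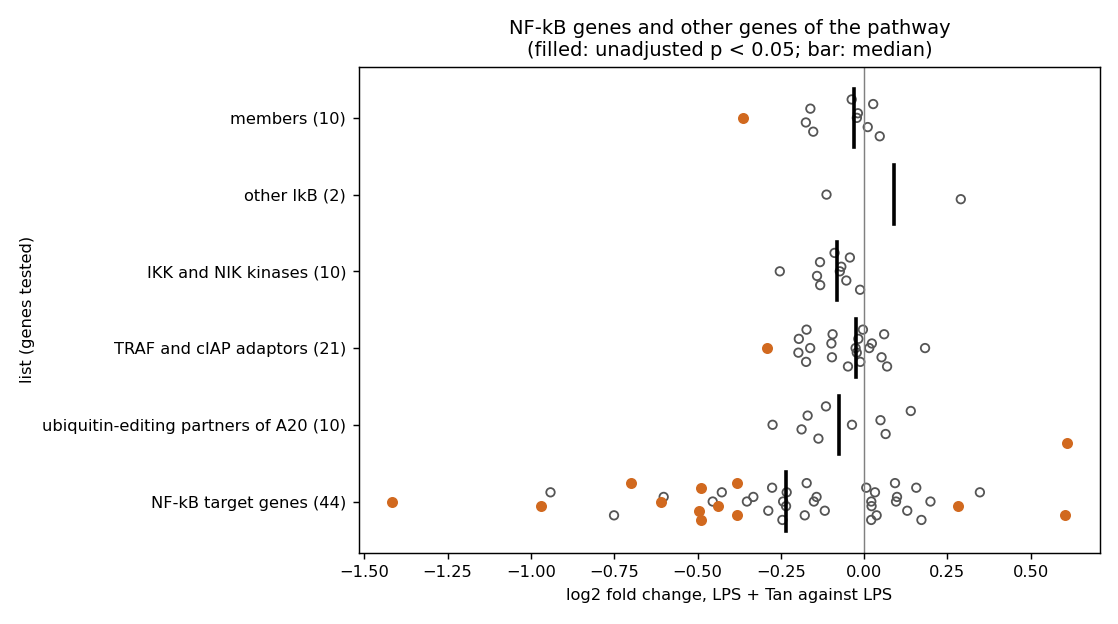
Log2 fold change of LPS + Tan against LPS for the 10 NF-κB genes and 5 lists of other pathway genes, with 1 point a gene, filled where the unadjusted p was below 0.05, and a black bar at the median of each list. The members centre near 0, at -0.030, Tnip3 stands alone at 0.61 among the A20 partners, and the target genes reach from -1.42 to 0.60.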

How the data were processed

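Lung RNA of 4 LPS and 4 LPS + Tan samples was sequenced, and groups and replicate numbers were taken from the labels. The authors deposited raw read counts per gene and FPKM values for the same 24584 genes. The submitters' processing notes name GRCm38 (mm10), whereas aligner and counter were not given in the sources used here. FPKM as deposited by the authors equals the counts divided by a fixed gene length and the sample total. The methods and the labels name different extraction and library kits.

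The count test was that of edgeR 4.0.16 under R 4.3.3 (filterByExpr, TMM, quasi-likelihood test, no covariate), with Benjamini-Hochberg adjustment over 15706 genes. The standard error is the log2 fold change over the root of F, and 0.5 was added to CPM before logs. Alternatives were DESeq2 1.42.0, RLE scaling, sample totals, no filter, limma 3.58.1 on log2(FPKM + 1) and log2(FPKM + 0.1), a replicate block, and omission of each sample. Within-library ratios and exon lengths were added after seeing the data. The members and lists were chosen with earlier results of these data known. From each pathway list the text names genes with an unadjusted p below 0.05 and the 2 with the largest change. Of the target genes it also names Tnf, Il1b, Icam1 and Vcam1, which were above 0. It also names the 5 tested genes most correlated with the mean of the members and the 1 most correlated with each member. The script was tested on simulated data with changes larger than that of any member. That test says nothing of how often changes as small as those of the members would be found. Counts of same-group samples differed 7.83 to 22.4 times more (median squared deviation) than sampling noise allows, so none were merged. The labels do not state that samples are separate mice, so p-values measure the spread between these samples.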

Additional observations from a re-analysis of the deposited data

Results flagged for a closer look

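Nfkb2 in LPS replicate 4 lay far from the other LPS samples in log2 CPM, at 107 CPM against 121 to 124 CPM, with a gap to its neighbour of 0.839 of the range of the group. This share is past Dixon's 95% critical value for 4 samples, as in 1 of 36 groups of samples examined, where chance gives about 1.8.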

How the results depend on the processing

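Over 15 alternatives for each of the 10 members, 124 of 150 log2 fold changes kept their sign and 0 passed an adjusted p of 0.05. Relb, Nfkbia, Nfkbiz and Tnfaip3 kept theirs under all 15. With sample totals, limma on log2(FPKM + 1) and limma on log2(FPKM + 0.1), in that order, Nfkb1 was 0.0058, 0.0023 and 0.0023, Rela 0.021, 0.017 and 0.017, Bcl3 0.017, 0.0067 and 0.0067, the median of the members 0.011, 0.0045 and 0.0045, and the number of members below 0 was 4, 4 and 4. The cause was not tested, but the median of all genes was 0.049 with sample totals against 0.0070. With single samples left out, log2 fold changes ran from -0.084 to 0.022 for Nfkb1, from -0.018 to 0.058 for Nfkb2, from -0.063 to 0.15 for Rel, from -0.092 to 0.036 for Rela, from -0.052 to 0.12 for Nfkbie, from -0.13 to 0.066 for Bcl3 and from -0.11 to 0.0095 for the median. Members at an unadjusted p of 0.05 ran from 0 to 3 and members below 0 from 4 to 9. Lower upstream genes ran from 0 to 4 and higher ones from 1 to 2, lower targets from 4 to 15 and higher ones from 0 to 3, listed genes at an adjusted p of 0.05 from 0 to 1 (Cxcl10, without LPS + Tan replicate 4), and pairs with separated ratios from 7 to 11. DESeq2 called 2 listed genes at that level.

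For the correlations, Nfkbia with Tnfaip3 gave 0.838 on log2(FPKM + 1), 0.714 by Spearman and 0.354 without the farthest samples, and Nfkbiz with Bcl3 gave 0.760 on log2(FPKM + 1) and 0.674 without the farthest samples, none past an adjusted p of 0.05. Nfkbia with Nfkbie turned to -0.153 on log2(FPKM + 1), -0.048 by Spearman and -0.476 without the farthest samples, and Nfkb2 with Relb to -0.280 there. With single samples left out, r ran from 0.785 to 0.927, from 0.742 to 0.892, from -0.363 to 0.310 and from 0.054 to 0.579 for these pairs, in the same order, and from 0.359 to 0.781 for Nfkb1 with Rela.

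The replicate numbers did not pair the samples, since deviations of same-numbered samples correlated at 0.164, -0.050, -0.165 and 0.044, and 2 of 8 samples correlated best with their own number. With the replicate block, Rel was -0.010, Tnfaip3 was -0.38, 1 member had an unadjusted p below 0.05 and 0 an adjusted one.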

Other observations

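The tested genes whose log2 CPM over the 8 samples was most like the mean of the 10 members were Znhit6 (r = 0.976), Junb (0.963), Ftsj1 (0.961), Pde4b (0.946) and Ik (0.944). Junb encodes an AP-1 subunit, and Pde4b the phosphodiesterase that restrains cyclic AMP in leukocytes. They were picked as the highest of 15706 genes over 8 samples, so the values are descriptions, and their log2 fold changes lay between -0.20 and -0.036.

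The gene most like each member was Ctps for Nfkbiz (r = 0.990), Chd8 for Rel (0.990), Pecr for Relb (0.988), Smoc2 for Nfkbia (0.987), Cd96 for Nfkb1 (0.985), Eif3h for Nfkbie (0.981), Cers4 for Tnfaip3 (0.980), Cd200 for Bcl3 (0.98), Gm20056 for Rela (0.970) and Ovol2 for Nfkb2 (0.945). Cd96, Pecr, Ovol2 and Gm20056 were below 3 CPM on average, where counting error takes a larger share.

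The summed erythroid markers ran from 1428 to 3456 CPM in the LPS samples and from 1328 to 2178 CPM in the LPS + Tan samples, and all 7 of the genes had a log2 fold change below 0, against 48.2% of all genes, with 0 at an unadjusted p of 0.05 by edgeR. Of the 10 macrophage and monocyte markers 9 were above 0, and of the 10 epithelial markers 8 were below 0, again with 0 at that level. Among the 10 endothelial markers 5 were above 0, and Kdr, at 0.37, was the single marker of the 8 lists at that level. The part of these cells in the values of the NF-κB genes was not tested.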
